A study of Homo sapiens with 14 samples.

Results

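The TFEB family of transcription factors and the folliculin and Rag GTPase proteins that hold it at the lysosome were followed as 9 genes, namely TFEB, TFE3, MITF, FLCN, FNIP1, FNIP2, RRAGC, RRAGD and MCOLN1. They were chosen by symbol from what is known of the pathway, with earlier results of these data also known. Each of the 9 had 1 row in both deposited tables, among 28501 gene rows for replicate 1 and 25209 for replicate 2. RNA was sequenced from U2OS, an established human osteosarcoma line, in a series whose title concerns H3K4 demethylation and autophagy. Each of 14 libraries came from cells given the solvent DMSO or 1 of 9 small molecules, no library was untreated, and no allele or transgene is named for any group. The groups with 2 libraries each were DMSO at 0.5% by volume, 2-PCPA (12 h at 1 mM), GSK343 (24 h at 10 μM) and rapamycin (24 h at 5 μM). 2-PCPA is tranylcypromine, which blocks monoamine oxidases and the H3K4 demethylase KDM1A, GSK343 blocks the H3K27 methyltransferase EZH2, and rapamycin blocks mTORC1. The groups with 1 library were BIX-01294 (12 h at 5 μM) and BRD4770 (24 h at 20 μM), which target the H3K9 methyltransferases of the EHMT family, and GSK-J4 (12 h at 20 μM), which blocks H3K27 demethylases. Single libraries were also made for the deacetylase inhibitors SAHA (24 h at 1 μM) and VPA (24 h at 20 μM) and for UNC1215 (24 h at 50 μM), which binds the methyl-lysine reader L3MBTL3. The time in DMSO is not given, so a difference between a compound and DMSO cannot be told apart from a difference in hours. Nothing in the labels says that replicates came from separate cultures, so p-values measure the spread between these libraries, which may be technical.

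When nutrients are plentiful, Rag GTPase heterodimers (RRAGA or RRAGB with RRAGC or RRAGD) recruit the kinase complex mTORC1 to the lysosomal surface, where TFEB, TFE3 and MITF are phosphorylated and kept in the cytoplasm by 14-3-3 proteins. Folliculin (FLCN), with its partners FNIP1 or FNIP2, is the GTPase-activating protein for RRAGC and RRAGD and is needed for TFEB and TFE3 to be presented to mTORC1. Starvation, or release of lysosomal calcium through the channel MCOLN1, frees the factors to enter the nucleus and switch on genes of lysosomes and autophagy, the CLEAR network. FLCN, FNIP1, FNIP2, RRAGC, RRAGD and MCOLN1 are themselves known target genes of the family, so the pathway feeds back on itself. This regulation acts on the proteins, whereas the libraries measure mRNA.

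The family binds the E-box CACGTG, best in its CLEAR form, and the stretches of promoter that hold one are shown because they carry the letters that the family is known to bind. RefSeq promoter windows on GRCh38.p14, each of 300 bases from 250 before to 50 after a start, were at hand for 8 of the 9 genes, in 13 windows. The letters searched were the E-box CACGTG, the longer core TCACGTGA and the full CLEAR motif, which is that core with a G before and a C after it. Each reads the same on both strands and each longer motif contains the shorter one. Capitals mark the longest motif matched at each place, and every stretch is written 5′ to 3′ on the gene's strand.
RRAGC, chr1:38859865-38859898, minus strand: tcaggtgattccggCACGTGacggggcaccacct
FNIP1, chr5:131797092-131797206, minus strand: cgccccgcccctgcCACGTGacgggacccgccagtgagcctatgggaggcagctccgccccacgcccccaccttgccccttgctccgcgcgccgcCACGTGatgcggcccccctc
MCOLN1, chr19:7522569-7522623, plus strand: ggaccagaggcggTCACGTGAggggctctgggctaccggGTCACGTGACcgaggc

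The E-box began 112 bases before the start of RRAGC. In FNIP1 it began 175 and 94 bases before the start, and in MCOLN1 41 and 14 bases before it. MCOLN1 alone among the 8 genes held the longer core, at both of its places, and the full motif once. The windows of TFEB, TFE3, MITF, FLCN and FNIP2 did not hold these letters. Over all 27305 genes with a window, 8.77% held the E-box, 1.18% the core and 0.421% the full motif, against 3, 1 and 1 of the 8 genes. A match describes letters and not a bound site.

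**Figure D1:**
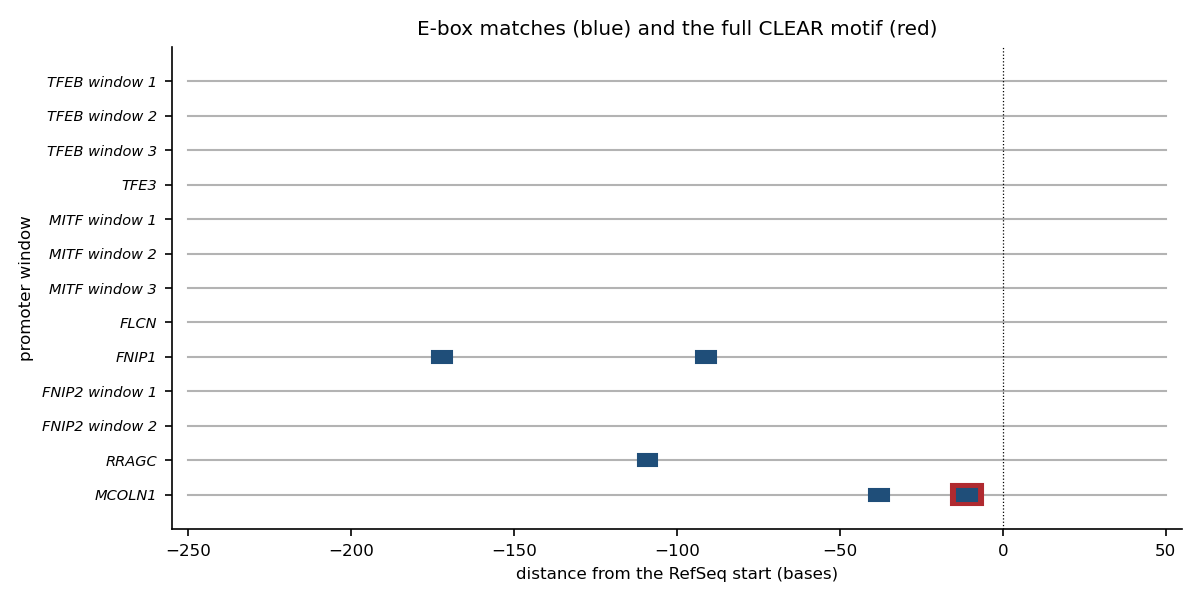
Places of the E-box (blue) and of the full CLEAR motif (red) in the 13 RefSeq promoter windows of 8 genes, in bases from the start site (dotted line). Matches lie in RRAGC (1), FNIP1 (2) and MCOLN1 (2), all before the start.

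Levels are given in FPKM, the authors' value per gene corrected for transcript length and library size, so that genes can be set side by side within a library. The deposited tables were made separately, and FPKM of DMSO summed to 456039 in one and 731805 in the other, so levels were compared within a table and replicates through fold changes. FPKM carries no read counts, so absolute depth is unknown. Depth relative to DMSO, read from the steps between low values, was lowest in BIX-01294 (0.555) and highest in SAHA (1.24) in the replicate 1 table, and 0.676 to 0.809 in the replicate 2 table. The library of 2-PCPA replicate 1 stood apart: its median log2 fold change against DMSO was -0.42 over the tested genes, against 0.01 in replicate 2. It also listed 28.0% of olfactory receptor rows above 0, against 2.40% to 6.40% in the other 9 libraries of that table. The 2-PCPA levels of the 9 genes are therefore given for both replicates, while medians and centred estimates below combine both. In GSK343 replicate 1, fold changes moved with base composition: the median was -0.23 in the quintile of genes poorest in G and C and 0.44 in the richest, against -0.03 and 0.08 in replicate 2. SAHA (-0.06 to 0.31), VPA (-0.15 to 0.27) and rapamycin replicate 1 (-0.18 to 0.13) ran the same way as GSK343 replicate 1. BIX-01294 ran the other way, from 0.31 to -0.15. Transcripts of FNIP1, MITF, RRAGD, FNIP2 and RRAGC hold 38.9% to 44.9% G and C, and those of FLCN, TFEB, TFE3 and MCOLN1 55.8% to 60.9%.

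Mesenchymal markers were high throughout. VIM was at 388 to 1119 FPKM, SPARC at 154 to 330 and COL1A1 at 74.0 to 187 in the 14 libraries, whereas the bone genes RUNX2 (0.629 to 5.27) and ALPL (0 to 4.76) were low. The epithelial keratin KRT18 was also high, at 193 to 427 FPKM, whereas EPCAM reached 2.51 at most and CDH1 0.649. Of the melanocyte genes through which MITF is best known, TYR and DCT were listed at 0 in all 14 libraries, TYRP1 reached 0.181, MLANA 0.945 and PMEL 3.42 FPKM. The T cell marker CD3E was listed at 0 throughout, and the leukocyte marker PTPRC reached 0.268. In libraries of this kind, fewer expressing cells and less RNA per cell cannot be told apart.

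TFE3 was by far the most abundant of the 3 transcription factor mRNAs. In DMSO it stood at 52.6 FPKM in replicate 1 and 57.8 in replicate 2. MITF, known as the master regulator of melanocytes, stood at 5.68 and 3.41 FPKM, and TFEB, the best studied regulator of lysosome genes, at 2.92 and 2.59. TFE3 made up 78.6% (SAHA) to 90.6% (DMSO replicate 2) of the summed FPKM of the 3 genes, with a median of 88.5% over the 14 libraries. TFEB made up 4.14% at the median, from 1.05% in BRD4770 to 11.4% in 2-PCPA replicate 1. MITF made up 7.37% at the median and was highest in BRD4770, at 17.4%.

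Below TFE3, the DMSO levels of the 9 genes formed further steps. RRAGC followed at 13.9 and 17.3 FPKM. MCOLN1 (7.25 and 10.7) and FLCN (7.17 and 10.5) came next and were near each other in both tables. FNIP2 (4.18 and 5.79), FNIP1 (4.57 and 4.93) and MITF stood below them in an order that turned between the tables, as did that of RRAGD (2.20 and 3.05) and TFEB at the bottom. The paralogs were thus unequal within the Rag pair: RRAGC was 6.34 times RRAGD in DMSO replicate 1 and 5.66 times in replicate 2. FNIP1 and FNIP2 were near parity, with ratios of 1.09 and 0.851.

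**Figure D2:**
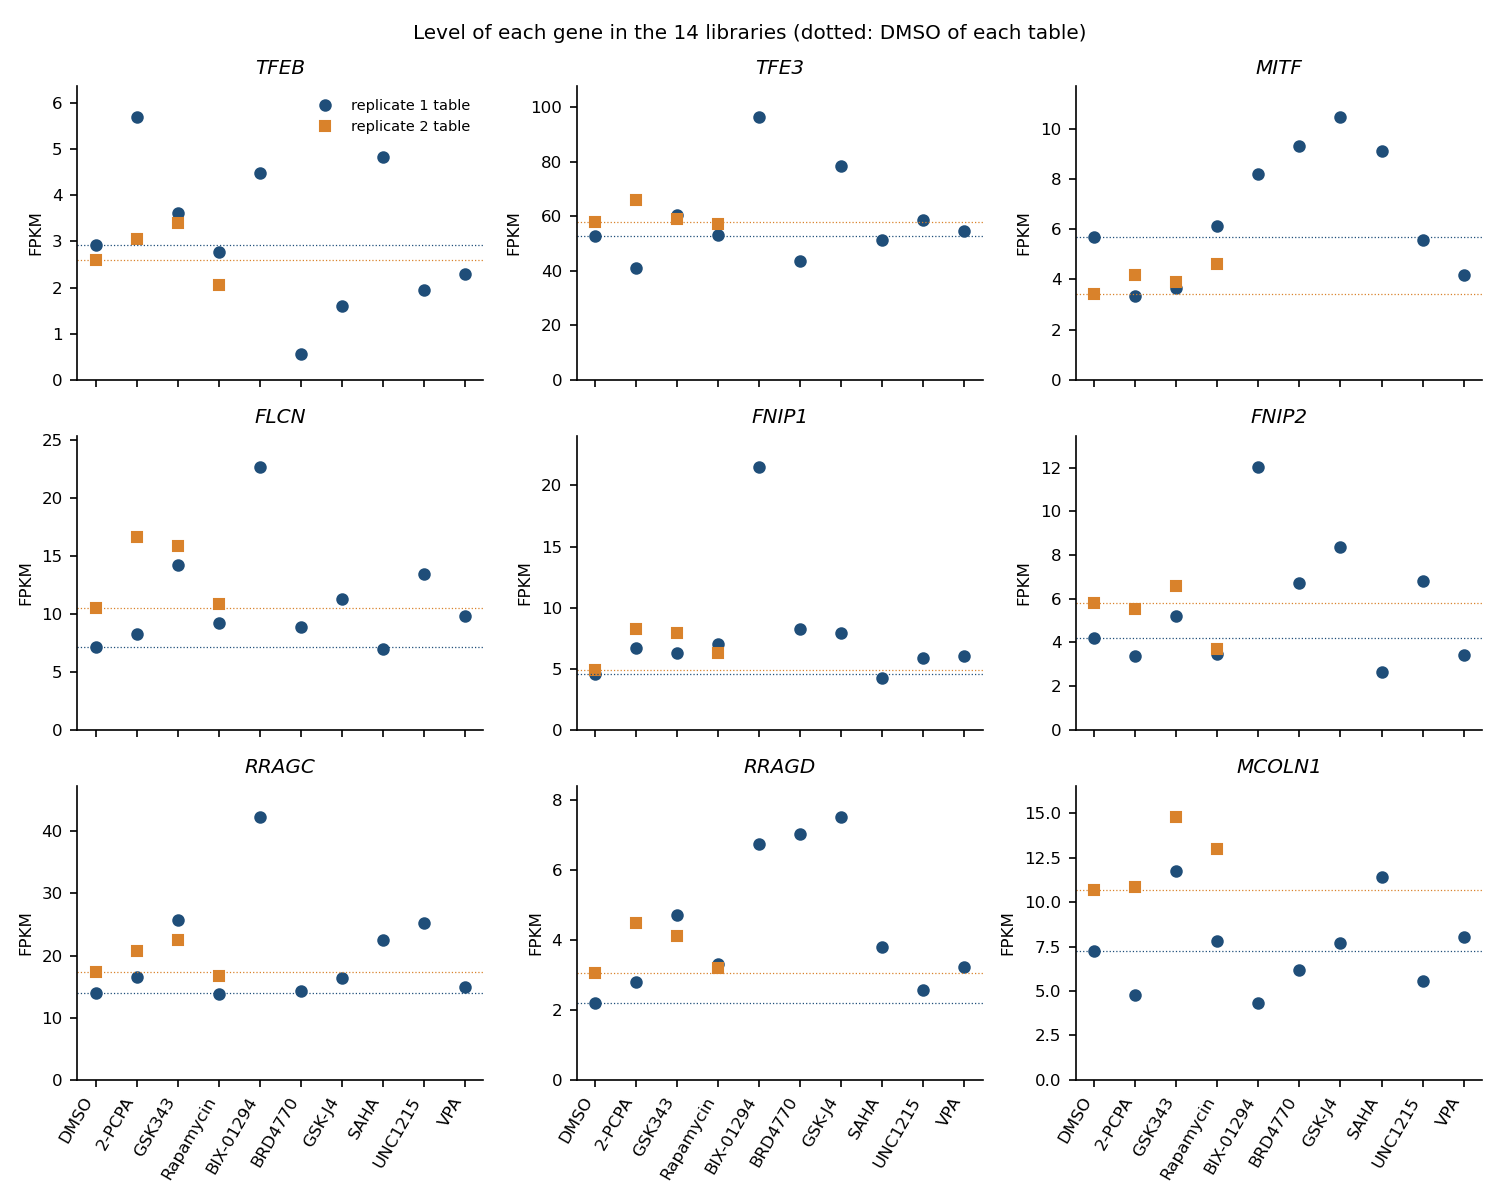
FPKM (vertical axis, from 0) of each of the 9 genes by treatment, circles for the replicate 1 table and squares for the replicate 2 table, with the DMSO level of each table as a dotted line. BIX-01294 gives the highest value of TFE3, FLCN, FNIP1, FNIP2 and RRAGC and the lowest of MCOLN1 in its table, and BRD4770 the lowest TFEB, at 0.561 FPKM.

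None of the 9 genes passed the test in a comparison of compounds with 2 libraries. The test was limma on log2(FPKM + 1), with calls at a Benjamini-Hochberg adjusted p below 0.05 over 12603 genes whose mean was 1 FPKM or more. All 9 genes met that level. Few genes passed at all: 0.0238% of those tested for 2-PCPA against DMSO, 0.0159% for GSK343 and 0.0159% for rapamycin. The 95% interval of a member's log2 fold change reached 0.47 to 0.59 to either side. Fold changes below are on the log2(FPKM + 1) scale, which understates the change of low genes. Values against DMSO share the DMSO libraries and are not independent of one another.

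GSK343 had the largest values, with FLCN, RRAGC, RRAGD, MCOLN1 and FNIP1 above DMSO in both replicates, at 1.40 to 1.65 times DMSO on that scale. FLCN, the GTPase-activating subunit, was at 14.2 FPKM against 7.17 in replicate 1 and at 15.8 against 10.5 in replicate 2. GSK343 lay above DMSO in both tables. Its log2 fold change was 0.73 ± 0.24 (SE, n = 2; limma adjusted p = 0.949). The adjusted p came to 0.406 when 366 rows of small RNAs and clones were left out, and ran from 0.326 to 1.00 over all alternatives.

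RRAGC, the Rag subunit on which folliculin acts, was at 25.6 FPKM against 13.9 in replicate 1 and at 22.4 against 17.3 in replicate 2. Its log2 fold change came to 0.60 ± 0.22 (SE, n = 2; limma adjusted p = 0.949). RRAGD, its paralog and a gene that TFEB and TFE3 are known to switch on, was at 4.71 against 2.20 FPKM and at 4.10 against 3.05. The log2 fold change of RRAGD was 0.58 ± 0.25 (SE, n = 2; limma adjusted p = 0.949). For RRAGC and RRAGD alike GSK343 lay above DMSO in both tables, and the difference in replicate 1 (log2 0.84 for each) was larger than in replicate 2 (0.36 and 0.33). Without GSK343 replicate 1 the log2 fold change of either gene was 0.36.

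FNIP1, a folliculin partner, was at 6.25 FPKM with GSK343 against 4.57 in replicate 1 and at 7.90 against 4.93 in replicate 2 (log2 fold change 0.48 ± 0.21, SE, n = 2; limma adjusted p = 0.949). FNIP2 was at 5.20 against 4.18 and at 6.60 against 5.79, above DMSO by less. MCOLN1, the lysosomal calcium channel, was at 11.8 against 7.25 and at 14.8 against 10.7 (0.53 ± 0.23, SE, n = 2; limma adjusted p = 0.949). MCOLN1 is the member richest in G and C: when each library was centred within quintiles of genes by G and C content, its log2 fold change was 0.24, while FLCN was at 0.56, FNIP1 at 0.59, RRAGC at 0.66 and RRAGD at 0.65.

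The transcription factors themselves stood nearer to DMSO with GSK343. TFEB was at 3.60 FPKM against 2.92 and at 3.40 against 2.59, TFE3 at 60.3 against 52.6 and at 59.1 against 57.8, and MITF at 3.65 against 5.68 and at 3.89 against 3.41. MITF was thus lower in replicate 1 and higher in replicate 2. With the 95% intervals, the log2 fold change of TFE3 lay between -0.45 and 0.67, with its estimate at 0.11 and at -0.17 after centring by G and C content, and that of TFEB between -0.30 and 0.82. In all, 8 of the 9 genes were above DMSO in both GSK343 replicates and none below in both, beside 34.6% and 26.7% of all tested genes. At an unadjusted p below 0.05, 5 were higher and 0 lower (3.3% and 0.92% of all genes). After centring by G and C content 4 were below that p and higher (FLCN, FNIP1, RRAGC and RRAGD, without MCOLN1), beside 4.41% of all genes. The median log2 fold change of the 9 genes was 0.48, against 0.03 over all tested genes. The part of base composition in these values was not tested beyond the centring given above.

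With 2-PCPA, FNIP1 had the largest value. It was at 6.70 FPKM against 4.57 in replicate 1 and at 8.24 against 4.93 in replicate 2, above DMSO in both tables. Its log2 fold change was 0.55 ± 0.21 (SE, n = 2; limma adjusted p = 0.592). The median log2 fold change of all tested genes was -0.20, mostly from replicate 1. With each library centred on its median, FNIP1 was at 0.75, TFEB at 0.67 and FLCN at 0.60, and the adjusted p of these was 0.350 to 0.501. With the centring by G and C content the limma adjusted p of FNIP1 was 0.0903, the lowest of its alternatives, which reached 1.00.

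TFEB was at 5.68 FPKM with 2-PCPA against 2.92 in replicate 1, the highest of the 10 libraries of that table, and at 3.05 against 2.59 in replicate 2. The gap was thus wide in one replicate and small in the other, and the log2 fold change was 0.47 ± 0.24 (SE, n = 2; limma adjusted p = 0.592). FLCN went the opposite way in size, at 8.28 against 7.17 FPKM in replicate 1 and 16.6 against 10.5 in replicate 2. RRAGC was at 16.6 against 13.9 and at 20.7 against 17.3, log2 differences of 0.23 and 0.25. RRAGD was at 2.80 against 2.20 and at 4.48 against 3.05.

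MCOLN1, MITF and TFE3 were below DMSO in 2-PCPA replicate 1, at 4.79, 3.33 and 41.0 FPKM, and not in replicate 2, at 10.8, 4.17 and 66 FPKM against 10.7, 3.41 and 57.8. Their direction thus rested on the replicate, and also turned with median centring for TFE3 (0.12) and MITF (0.00) and with TPM scaling for MCOLN1 (0.07). FNIP2 was at 3.40 against 4.18 and at 5.52 against 5.79. Counted over both replicates, 5 genes were higher with 2-PCPA (TFEB, FLCN, FNIP1, RRAGC and RRAGD; 11.5% of all tested genes) and 1 lower (FNIP2, though at 0.05 after median centring; 42.2%). At an unadjusted p below 0.05, 1 gene was higher and 0 lower, beside 1.49% and 5.99% of all genes. After centring by G and C content 4 were below that p (FLCN, FNIP1, RRAGC and RRAGD), beside 6.39% of all genes that were higher. The median of the 9 genes was 0.24, against -0.20 over all tested genes.

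With rapamycin most of the 9 mRNAs stood near DMSO. FNIP1 was at 7.0 FPKM against 4.57 in replicate 1 and at 6.32 against 4.93 in replicate 2, above DMSO in both tables (log2 fold change 0.41 ± 0.21, SE, n = 2; limma adjusted p = 0.757). FNIP2 was at 3.46 against 4.18 and at 3.71 against 5.79 (log2 fold change -0.37 ± 0.21, SE, n = 2; limma adjusted p = 0.768). The pair therefore stood in opposite directions.

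TFE3 with rapamycin was at 53.3 and 57.0 FPKM, next to 52.6 and 57.8 in DMSO, and its 95% interval ran from -0.56 to 0.56. RRAGC, at 13.9 and 16.6 FPKM, also lay next to DMSO. Of the 9 genes, 5 were above DMSO in both replicates and 3 below, beside 25.5% and 37.1% of all tested genes, and 0 passed an unadjusted p of 0.05 in limma, beside 3.22% of all genes that were higher and 3.24% that were lower. After centring by G and C content 1 passed it (FNIP1, at 0.51), beside 9.45% of all genes that were higher. The median was 0.18, against -0.05 over all tested genes.

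**Figure D3:**
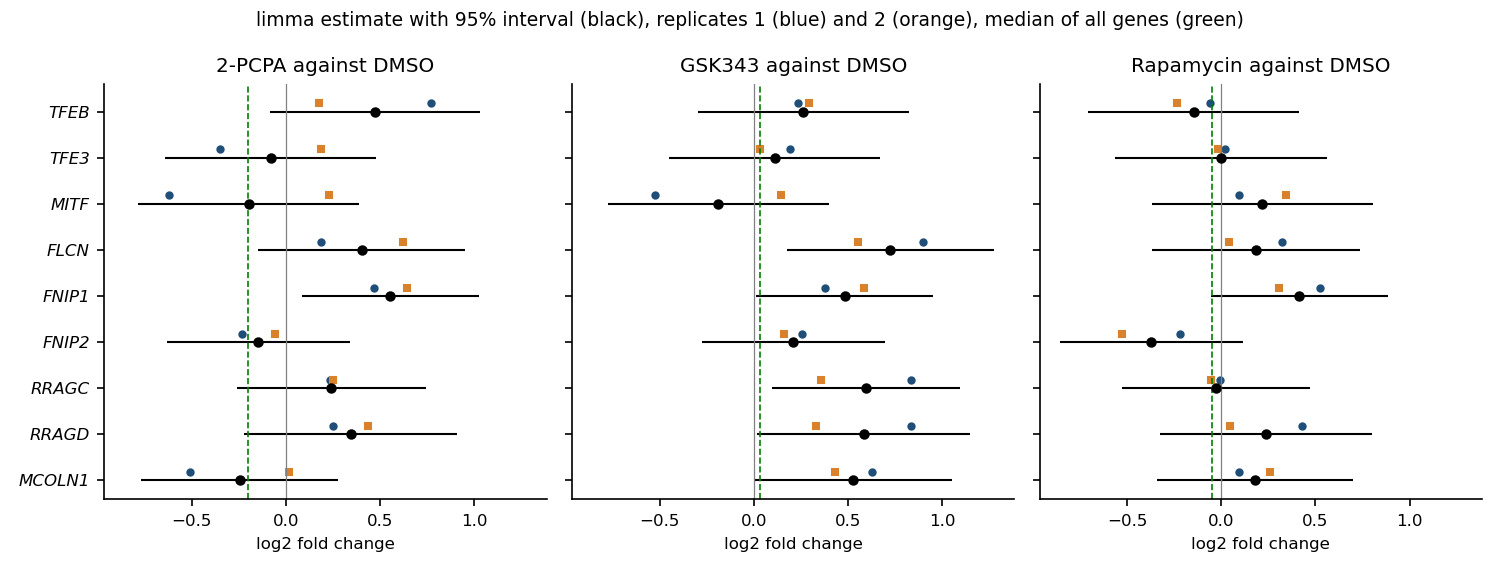
log2 fold change of FPKM + 1 against DMSO for the 9 genes under the compounds with 2 libraries: limma estimate with 95% interval (black), replicate 1 (blue circles), replicate 2 (orange squares) and the median of all tested genes (green dashed line). For GSK343 the intervals of FLCN, FNIP1, RRAGC, RRAGD and MCOLN1 exclude 0 before adjustment for the number of genes, for 2-PCPA that of FNIP1, and for rapamycin none.

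FLCN, FNIP1 and RRAGD were above DMSO in both replicates of all 3 compounds, which share the DMSO libraries. How many of all tested genes were so with all 3 compounds was not counted. Taken singly, 11.5% were with 2-PCPA, 34.6% with GSK343 and 25.5% with rapamycin. DMSO was the lowest library of the replicate 2 table for FLCN, FNIP1 and RRAGD, and of the replicate 1 table for RRAGD. FNIP1 had the most even values, at log2 0.55, 0.48 and 0.41. Against the median of the other libraries of the replicate 1 table in place of DMSO, FNIP1 was at 0.09, -0.09 and 0.14. In the same order of 2-PCPA, GSK343 and rapamycin, FLCN was at -0.22, 0.58 and -0.08 and RRAGD at -0.34, 0.41 and -0.16. The ratio of FNIP1 to FNIP2 was 1.97 and 1.49 with 2-PCPA and 2.02 and 1.70 with rapamycin, against 1.09 and 0.851 in DMSO. GSK343 gave 1.20 in both replicates. Across the 14 libraries the ratio ran from 0.851 to 2.02, so the partner with the larger FPKM was FNIP1 in some libraries and FNIP2 in others.

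The compounds were also set against one another, although 2-PCPA was given for 12 h and the others for 24 h. Over 2-PCPA against GSK343, 2-PCPA against rapamycin and GSK343 against rapamycin, 0 of the 9 genes passed, beside 0.0317%, 0.0476% and 0.0793% of all tested genes. At an unadjusted p below 0.05 in limma, 1 was lower for 2-PCPA against GSK343 (MCOLN1, beside 10.9% of all genes lower and 0.762% higher), 1 higher for 2-PCPA against rapamycin (TFEB, beside 2.49% higher and 9.28% lower), and 2 higher for GSK343 against rapamycin (FNIP2 and RRAGC, beside 4.05% higher and 1.55% lower). MCOLN1 came nearest, at 4.79 and 10.8 FPKM with 2-PCPA against 11.8 and 14.8 with GSK343. 2-PCPA lay below GSK343 in both tables, by a log2 difference of -0.78 ± 0.23 (SE, n = 2; limma adjusted p = 0.418). The difference was -0.27 after centring by G and C content. Without 2-PCPA replicate 2 it was -1.05 with an adjusted p of 0.0445, the lowest of its alternatives, which reached 1.00, in a comparison where 1844 of 12603 genes then passed and which rested on the library that stood apart.

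TFEB was higher with 2-PCPA than with rapamycin (5.68 and 3.05 against 2.76 and 2.05 FPKM), by a log2 difference of 0.62 ± 0.24 (SE, n = 2; limma adjusted p = 0.421). With GSK343 against rapamycin, RRAGC differed by 0.63 ± 0.22 (SE, n = 2; limma adjusted p = 0.820) and FNIP2 by 0.58 ± 0.21 (SE, n = 2; limma adjusted p = 0.863). Both RRAGC and FNIP2 were higher with GSK343 in both replicates. FLCN differed by 0.54, with an interval from -0.01 to 1.09. The remaining estimates of the 9 genes in these comparisons lay between -0.42 and 0.41.

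BIX-01294 gave the highest levels of FLCN, FNIP1, FNIP2 and RRAGC of the 10 libraries of the replicate 1 table, in 1 library and hence with no replicate check and no test. FNIP1 was at 21.5 FPKM against 4.57 in DMSO, a log2 fold change of 2.01. RRAGC was at 42.3 against 13.9 (1.53), FLCN at 22.6 against 7.17 (1.53), FNIP2 at 12.0 against 4.18 (1.33) and RRAGD at 6.75 against 2.20 (1.28). These 5 of the 9 genes were past a log2 fold change of 1, as were 9.97% of the 12804 genes whose mean in the replicate 1 table was 1 FPKM or more, and 0 were past -1, as were 6.04%.

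TFE3 was also at its highest there, at 96.2 FPKM against 52.6 (log2 0.86). TFEB was at 4.49 against 2.92 and MITF at 8.18 against 5.68. MCOLN1, the known target with the full CLEAR motif shown above, was at its lowest, at 4.35 against 7.25 (-0.63). The median of the 9 genes was 1.28, against 0.06 over all genes.

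Several measured features stand beside the BIX-01294 values. The library was the shallowest, and genes poor in G and C were past a log2 fold change of 1 more often: 13.9% of the poorest quintile and 6.20% of the richest. FNIP1, RRAGD, FNIP2 and RRAGC fall among the poorest 2 quintiles, but FLCN falls in the fourth of 5 (52.0% to 58.6%). Centred within quintiles, FNIP1 was at 1.61, FLCN at 1.55 and RRAGC at 1.21, while FNIP2, at 1.00 when rounded, and RRAGD, at 0.95, were below the limit. Against the median of the other libraries of the table in place of DMSO, FNIP1 was at 1.63, FNIP2 at 1.33, RRAGC at 1.31, FLCN at 1.21 and RRAGD, below the limit, at 0.85. The part of depth in these values was not tested.

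BRD4770, which is directed at the same enzymes as BIX-01294 but was given at another dose and for another time, had other values. RRAGC was at 14.4 FPKM against 13.9 in DMSO and 42.3 with BIX-01294, and FLCN at 8.89 against 7.17 and 22.6. TFEB was at 0.561 FPKM, the lowest of the 10 libraries of its table, against 2.92 in DMSO (log2 -1.33), and RRAGD at 7.04 against 2.20 (1.33). The log2 fold change of TFEB was -2.19 with a pseudocount of 0.1, since so low a value depends on what is added. Past a log2 fold change of 1 lay 1 of the 9 genes, as did 5.94% of all genes, and past -1 likewise 1, as did 4.84%.

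RRAGD was also high with GSK-J4, at 7.51 FPKM against 2.20 (log2 1.41), the highest of that table. The ratio of RRAGC to RRAGD was 2.04 with BRD4770 and 2.19 with GSK-J4, against 4.2 to 9.84 in the other 12 libraries. GSK-J4 also gave the highest MITF, at 10.4 against 5.68 FPKM (0.78), and FNIP2 at 8.36 against 4.18 (0.85), TFE3 at 78.5 against 52.6 (0.57) and TFEB at 1.59 against 2.92 (-0.60). TFEB and TFE3 thus lay on opposite sides of DMSO. With GSK-J4, 1 gene was past 1, as were 8.92% of all genes, and 0 were past -1, as were 5.96%.

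DMSO replicate 1 was the lowest of the 10 libraries of its table for RRAGD, which bears on its values with BRD4770, GSK-J4 and BIX-01294. Against the median of the other libraries, 0 of the 9 genes were past 1 in BRD4770 or GSK-J4, and TFEB in BRD4770 remained past -1.

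The deacetylase inhibitors gave smaller differences. With SAHA, RRAGC was at 22.5 FPKM against 13.9 (log2 0.65), MITF at 9.12 against 5.68 (0.60), MCOLN1 at 11.4 against 7.25 (0.59), RRAGD at 3.8 against 2.20 (0.59) and TFEB at 4.83 against 2.92 (0.58). FLCN and FNIP1 were near DMSO, at 6.96 and 4.26 FPKM, and FNIP2 was at its lowest, at 2.67 (-0.50). Centred within quintiles by G and C content, RRAGC was at 0.72, MITF at 0.66, RRAGD at 0.65, TFEB at 0.49 and MCOLN1 at 0.25. TFE3 was at -0.38 after that centring and at -0.04 before it. With VPA the 9 genes lay between -0.37 and 0.40 of DMSO on the log2 scale, and between -0.36 and 0.50 when so centred. With either compound 0 of the 9 genes were past 1 and 0 past -1, where 7.79% and 3.83% of all genes were with SAHA and 2.81% and 1.59% with VPA.

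UNC1215 gave other values. FLCN was at 13.5 FPKM against 7.17 and RRAGC at 25.3 against 13.9 (log2 0.82 each), FNIP2 at 6.81 against 4.18 (0.59), while TFEB was at 1.95 against 2.92 (-0.41) and MCOLN1 at 5.55 against 7.25 (-0.33). RRAGD stayed near DMSO, at 2.57 FPKM, which gave the highest ratio of RRAGC to RRAGD, 9.84. With UNC1215 0 of the 9 genes were past 1 and 0 past -1, where 1.8% and 1.26% of all genes were.

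**Figure D4:**
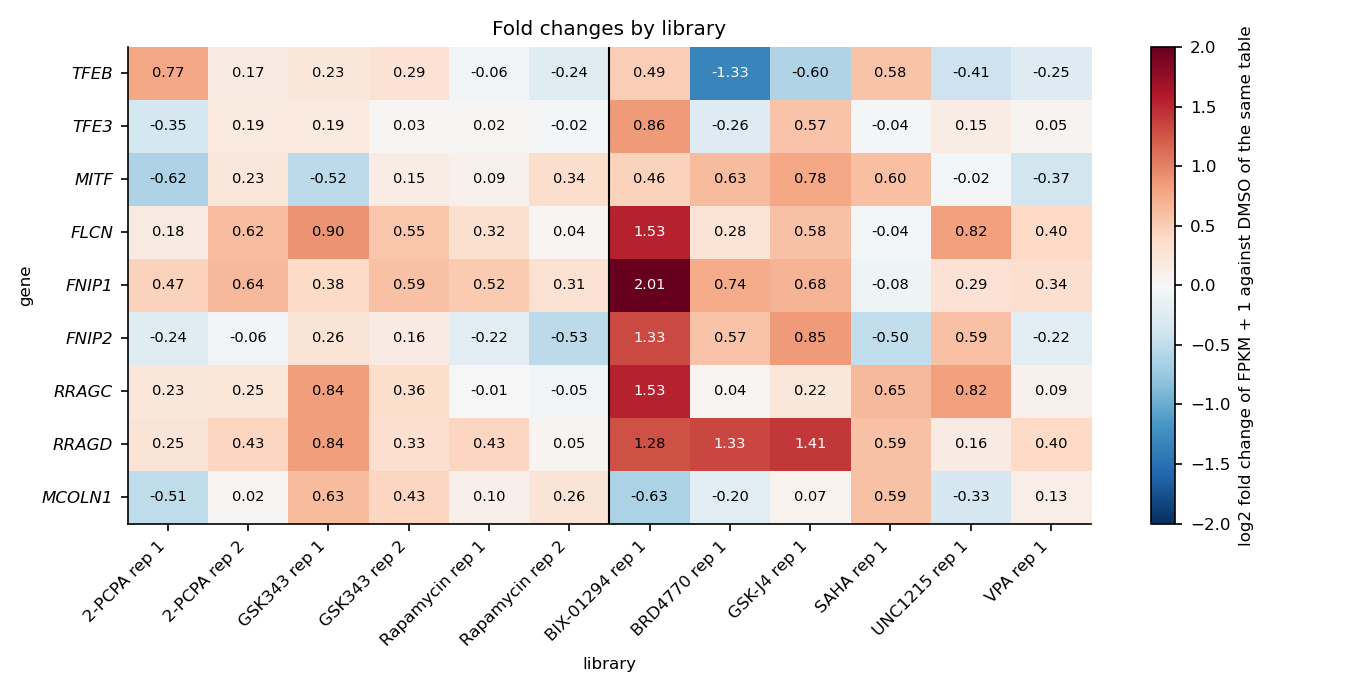
log2 fold change of FPKM + 1 against the DMSO library of the same table for each gene (rows) and library (columns, the compounds with 2 libraries left of the line), red above and blue below DMSO. FNIP1 in BIX-01294 (2.01) is the highest value and TFEB in BRD4770 (-1.33) the lowest.

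Over the 10 libraries of the replicate 1 table, which share a table and a DMSO library, the 9 genes did not all vary together. Pearson's r of log2(FPKM + 1) was 0.81 for FLCN and RRAGC, 0.80 for FLCN and FNIP2, 0.80 for FLCN and FNIP1, 0.80 for FLCN and TFE3 and 0.79 for FNIP1 and FNIP2. Without BIX-01294 these were 0.55, 0.62, 0.41, 0.56 and 0.59, each lower than with that library, whereas FNIP1 and RRAGD stood at 0.64 with and 0.66 without it. TFEB and FNIP2 were at -0.32 with and -0.73 without BIX-01294, and FNIP1 and MCOLN1 at -0.61 and -0.39. TFEB and TFE3 were at 0.08 and -0.21.

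Among 12614 genes ranked by the same measure over these 10 libraries, the 3 most like each member were no members themselves. These are the highest values out of many genes over few libraries, and carry no test. They were not computed without BIX-01294, so its part in them is not known. FNIP1 was nearest to RBM15 (r = 0.958), PPP1R15A (0.957; a stress-induced phosphatase subunit) and FOSL1 (0.953; an AP-1 factor). FNIP2 was nearest to CDK13 (0.970), E2F3 (0.954) and ITSN2 (0.949). FLCN was nearest to ATXN2L (0.934), MAFG (0.914) and TBKBP1 (0.905). TFE3 was nearest to REV1 (0.98), TRAPPC10 (0.956) and MDM4 (0.956).

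RRAGC followed MRPL44 (0.924), ZMYM5 (0.917) and GOT1 (0.915), and RRAGD followed AGPAT5 (0.951), SRA1 (0.950) and AUP1 (0.945). MITF was nearest to PDE8A (0.949), PSMD2 (0.949) and FAM53C (0.945), and MCOLN1 to RSAD1 (0.938), ST3GAL2 (0.938) and FBXL15 (0.937). TFEB had the lowest of these likenesses, with PDGFRA (0.856), RNF103-CHMP3 (0.827) and SMIM8 (0.816).

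The other Rag GTPases and the Ragulator scaffold, which anchors them to the lysosome, were taken as a list of 8 genes, all tested. With 2-PCPA, GSK343 and rapamycin 0 of 8 passed in either direction by limma. At an unadjusted p below 0.05, 1 was lower with 2-PCPA (LAMTOR2) and 0 with GSK343 and rapamycin. Of all genes 5.99%, 0.92% and 3.24% were lower at that p. LAMTOR2 was at 14.2 FPKM against 23.5 and 35.9 against 47.9 (log2 fold change -0.55, limma adjusted p = 0.592). With 2-PCPA 5 of the 8 were lower in both replicates and 0 higher, beside 42.2% and 11.5% of all genes, and the list's median was -0.38, against -0.20 over all genes. With GSK343 and rapamycin the medians were 0.08 and 0.01, against 0.03 and -0.05 over all genes. RRAGC and RRAGD, their partners, were above DMSO in both 2-PCPA replicates. RRAGA, the most abundant Rag in DMSO at 37.8 and 36.1 FPKM, was at 32.5 FPKM with BIX-01294. RRAGC there was 1.3 times RRAGA, whereas in the other 13 libraries RRAGC was 0.220 to 0.742 times RRAGA. With BIX-01294 1 of the 8 was past 1 (LAMTOR3, 1.00), beside 9.97% of all genes. The median was -0.24, against 0.06 over all genes.

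The GATOR and KICSTOR complexes, which act upstream on RRAGA and RRAGB, and the amino acid sensors made a list of 18 genes, all tested. By limma 0 passed with 2-PCPA, GSK343 or rapamycin. At an unadjusted p below 0.05, 1 was higher with 2-PCPA (SESN2), 1 higher with GSK343 (WDR59) and 1 lower with rapamycin (SESN2). The shares of all genes in these directions were 1.49%, 3.3% and 3.24%. The medians were -0.10, 0.06 and -0.15, against -0.20, 0.03 and -0.05 over all genes. SESN2, the leucine sensor and a known stress-response gene, was at 18.2 FPKM against 11.2 and 26.7 against 14.1 with 2-PCPA (log2 fold change 0.77, limma adjusted p = 0.592). With rapamycin it was at 8.03 against 11.2 and 8.12 against 14.1 (-0.58, limma adjusted p = 0.747). SESN2 was higher in single libraries of GSK-J4 (1.54) and BIX-01294 (1.20) too. WDR59 of GATOR2 was at 0.63 with GSK343, 1.24 with GSK-J4 and 1.08 with BRD4770. Other genes of the list lay lower, with SESN3 at -1.46 with GSK-J4 and KPTN at -2.20 with BRD4770. With GSK-J4 2 of 17 were past 1 and 1 past -1, beside 8.92% and 5.96% of all genes. With BRD4770 1 was past 1 and 2 past -1, beside 5.94% and 4.84%. The list's medians were -0.17 with GSK-J4 and -0.30 with BRD4770, against 0.004 and -0.01 over all genes. With BIX-01294 1 of 17 was past 1 and 3 past -1, beside 9.97% and 6.04% of all genes. NPRL2 was at -1.26 and KPTN at -1.18.

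The proteins that act on TFEB directly, namely mTORC1 subunits, GSK3, AKT1, the phosphatase calcineurin, 14-3-3 proteins and the exportin XPO1, made a list of 19 genes. With 2-PCPA, GSK343 and rapamycin 0 of 19 passed in either direction by limma. The medians were -0.36, -0.09 and -0.18, against -0.20, 0.03 and -0.05 over all genes. At an unadjusted p below 0.05 in limma, 1 was lower with 2-PCPA (YWHAH), 0 with GSK343 and 1 with rapamycin (YWHAG). Of all genes 5.99%, 0.92% and 3.24% were lower at that p. Both YWHAH and YWHAG encode 14-3-3 proteins, which hold the factors in the cytoplasm. With either compound no other 14-3-3 gene of the list was below that p. YWHAH was at 54.7 FPKM against 127 and 87.4 against 124 with 2-PCPA (-0.85, limma adjusted p = 0.592). YWHAG was at 58.0 against 88.8 and 59.9 against 94.5 with rapamycin (-0.63, limma adjusted p = 0.752). RPTOR, the mTORC1 subunit that binds the Rags, was at 1.35 with BRD4770 and 1.47 with GSK-J4, the libraries in which RRAGD was highest. In each it was the 1 gene of 19 past 1, beside 5.94% and 8.92% of all genes. The list's medians there were -0.12 and -0.23, against -0.01 and 0.004 over all genes. With BIX-01294, where RRAGD was at 1.28, RPTOR was at -0.13. With BIX-01294 1 of 19 was past 1 (PPP3R1, 1.10), beside 9.97% of all genes.

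Finally, 40 other known target genes of TFEB and TFE3 were set beside the 9, of which 37 could be tested. By limma 0 passed with 2-PCPA, GSK343 or rapamycin, whereas at an unadjusted p below 0.05 2, 7 and 4 were higher and 0 lower, beside 1.49%, 3.3% and 3.22% of all genes that were higher. With GSK343 26 of 37 were higher in both replicates and 3 lower, beside 34.6% and 26.7% of all genes. The median was 0.34, against 0.03 over all genes. The targets were not centred by G and C content in any comparison, although fold changes of GSK343 replicate 1 moved with it. The median of 35 targets in that library was 0.45, against 0.05 over all genes. All genes by quintile of G and C content ran from -0.23 in the poorest to 0.44 in the richest. The targets were not placed in these quintiles. The part of base composition in the target values was not tested. GPNMB, a lysosomal glycoprotein, was at 39.0 FPKM against 5.29 in replicate 1 and 11 against 4.98 in replicate 2 (log2 fold change 1.84 ± 0.41, SE, n = 2; limma adjusted p = 0.791). When rows of small RNAs and clones were left out, GPNMB was the 1 target that passed with GSK343 (limma adjusted p = 0.00605), beside 0.384% of all genes. The autophagy receptor SQSTM1 was at 133 against 50.2 and 165 against 98.7 (1.06), WIPI1, a phosphoinositide binder, at 13.0 against 4.10 and 12.5 against 7.65 (1.05), and the chloride exchanger CLCN7 at 29 against 10.1 and 18.7 against 12.0 (1.02). All 4 had a larger difference in replicate 1 than in replicate 2, as FLCN, RRAGC, RRAGD and MCOLN1 did.

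With rapamycin 20 of 37 targets were higher in both replicates and 7 lower, beside 25.5% and 37.1% of all genes, with a median of 0.21 against -0.05 over all genes. CLCN7 (0.96), the ubiquitin-like GABARAPL1 (0.92), the protease CTSF (0.87) and WIPI1 (0.82) had the largest values, although of the 9 genes only FNIP1 had an estimate above 0.24. With 2-PCPA 9 targets were higher in both replicates and 6 lower, beside 11.5% and 42.2% of all genes, and the median was -0.01 against -0.20. GPNMB was at 0.81 in replicate 1 and 0.97 in replicate 2, WIPI1 at 0.91 and 0.66, and SQSTM1 at 0.63 and 0.79.

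With BIX-01294, in 1 library, 6 of 35 targets were past 1, beside 9.97% of all genes, and their median was 0.20. The median of the 9 genes, which include TFEB, TFE3 and MITF themselves, was 1.28 without centring by G and C content. Of the 9 genes 5 were past 1, and 3 after that centring. MAP1LC3B, which encodes the autophagosome protein LC3B, was at 178 FPKM against 40.0 (2.12) and GABARAPL1 at 87.8 against 25.7 (1.74). With GSK-J4 5 of 35 were past 1 and 1 past -1, beside 8.92% and 5.96% of all genes, led by GABARAPL1 at 175 against 25.7 (2.72). The median of the targets was 0.12, against 0.58 for the 9 genes. In 2-PCPA replicate 1 the median was -0.24 for the targets and 0.18 for the 9 genes. BRD4770 had 2 past 1 (5.94% of all genes), UNC1215 1 (1.8%), SAHA 4 (7.79%) and VPA 3 (2.81%). The medians there were 0.08, 0.09, 0.27 and 0.27, against 0.28, 0.16, 0.58 and 0.09 for the 9 genes. These differences between groups of genes were not tested, and the targets were not centred by G and C content.

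**Figure D5:**
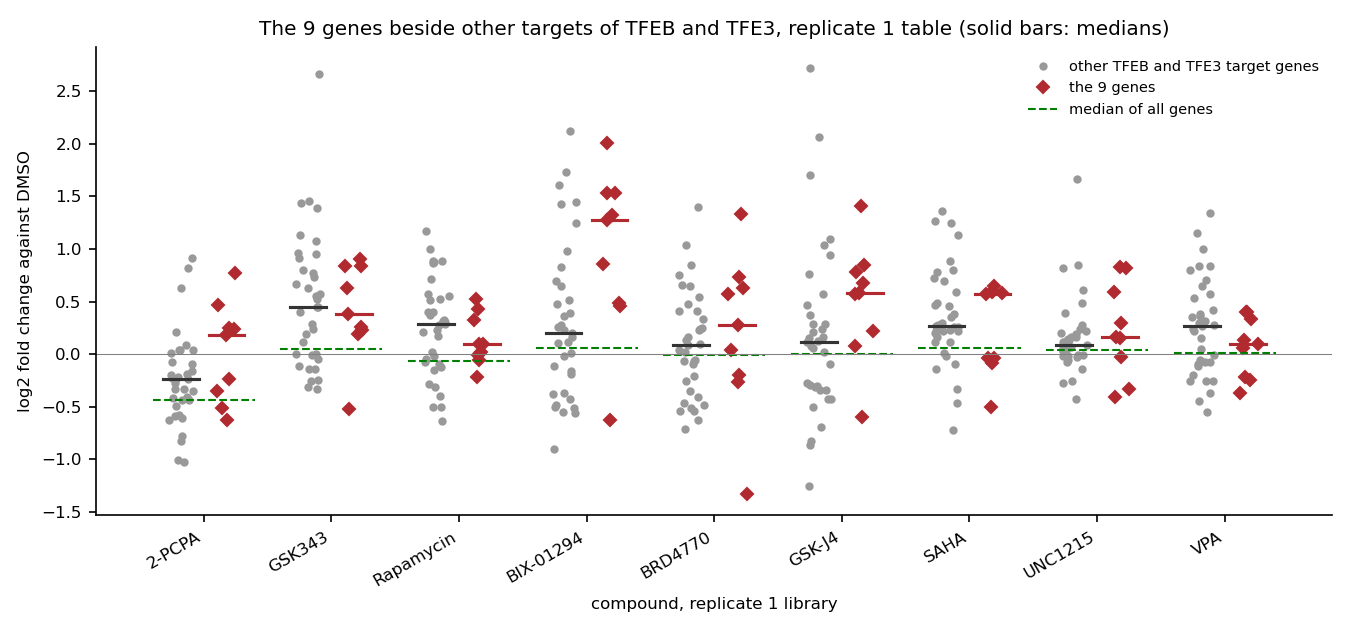
log2 fold change of FPKM + 1 against DMSO in the replicate 1 table for the 9 genes (red diamonds) and 35 other target genes of TFEB and TFE3 (grey circles), with medians as solid bars and the median of all genes as a dashed green line. In BIX-01294 the median of the 9 genes (1.28) lies above that of the targets (0.20). It lies below it with GSK343, rapamycin and VPA in this table, whereas over both replicates GSK343 gave 0.48 for the 9 genes and 0.34 for the targets.

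How firmly reads can be assigned differs between the 9 genes. In GENCODE gene models on GRCh38, exons of FLCN (chr17:17212212-17237188, minus strand), FNIP1 (chr5:131641714-131797063, minus), RRAGC (chr1:38838198-38859823, minus) and MCOLN1 (chr19:7522626-7534009, plus) overlap another gene on the same strand. The partners are AC055811.2, AC008695.1, AL139260.2, and for MCOLN1 both AC008878.2 and PNPLA6. Exons of TFEB (chr6:41683978-41736259, minus), TFE3 (chrX:49028726-49043486, minus), MITF (chr3:69739435-69968337, plus), FNIP2 (chr4:158769138-158908049, plus) and RRAGD (chr6:89364636-89412270, minus) overlap none. How the authors counted shared exons is not given in the sources used here.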

How the data were processed

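The deposited values were FPKM per gene, computed by the authors. Per the submitters' processing notes, reads were handled with FastQC, cutadapt and TopHat2 on hg19. Which program and annotation gave FPKM is not given in the sources used here. The labels' protocols describe poly(A) RNA made into Rubicon ThruPLEX libraries with PCR and state no strand. A row named unknown (1) was left out, and 0 columns were unused. Identical libraries numbered 0.

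Values were log2(FPKM + 1). The 12603 genes whose mean over 8 libraries was 1 FPKM or more entered 1 fit of 4 groups in limma 3.58.1 (R 4.3.3), blocked by replicate number, with trended eBayes and Benjamini-Hochberg adjustment. The fit had 3 residual and 5.42 prior degrees of freedom. Replicate numbers name the deposited table, and deviations of same-numbered libraries correlated at 0.710 to 0.784 over 6 pairs. Compounds with 1 library have differences from DMSO replicate 1 and no test. The fit was tested on simulated data. The 9 genes and the lists were chosen with earlier results of these data known. From each list the text names the genes past the threshold and at most 4 in each direction, by size, that went the same way in both replicates, and some were left out for length. In single libraries, list genes were named after their values were seen. G and C content came from the longest coding GENCODE transcript (88.4% of the tested genes, 85.6% in the replicate 1 table). That centring and the median of other libraries as reference were chosen after seeing the data. Some values of the marker and pathway lists are not reported here.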

Additional observations from a re-analysis of the deposited data

How the results depend on the processing

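Counts of genes past an adjusted p of 0.05 depended on the processing, while of the 9 genes 0 passed in each comparison and alternative run except MCOLN1 below. Counts are given in the order 2-PCPA against DMSO (3 as reported), GSK343 against DMSO (2), rapamycin against DMSO (2), 2-PCPA against rapamycin (6), GSK343 against rapamycin (10) and 2-PCPA against GSK343 (4), leaving out those within 1.5 times. A pseudocount of 0.1 gave 0, 0, 0, 6 (GSK343 against rapamycin) and 1. A pseudocount of 5 gave 1, 1 and 0 in the DMSO comparisons. No filter on low values gave 1, 0, 0, 2, 0 and 1. A mean of 5 FPKM or more gave 1, 4, 32, 35 and 2 from GSK343 against DMSO on. Median centring gave 0, 5 and 22 for GSK343 and rapamycin against DMSO and 2-PCPA against rapamycin. Quantile normalization gave 0, 0, 14, 4 and 2 from GSK343 against DMSO on. TPM scaling gave 1 for GSK343 against DMSO and 69 and 25 against rapamycin. Without the trend rapamycin against DMSO had 1. Robust eBayes gave 16, 18, 26, 84, 63 and 8. Fits of only the 2 groups compared gave 272, 0, 0, 389 and 0 before the last. Leaving out small RNAs and clones gave 39, 47, 68, 218, 99 and 23, and centring by G and C content 39, 15, 107, 506 and 81 before the last. The causes were not tested.

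Without the replicate block, which stands for the deposited table and its replicate number, the 6 counts were 1, 0, 0, 1, 0 and 1, and 0 of the 9 genes passed.

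With 1 library left out, where the lone library of a group was assumed to vary like the others, the counts ran from 2 to 47, 0 to 44, 0 to 42, 1 to 49, 0 to 38 and 1 to 1844. For 2-PCPA against GSK343, members past the threshold ran from 0 to 1 (MCOLN1, without 2-PCPA replicate 2).

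Leaving out 1 library turned the sign of a log2 difference of the 9 genes in 27 cases, counted by gene, comparison and fit. Some differences turned in several fits. The ranges of the differences that turned, over these fits, follow. For 2-PCPA against DMSO they were TFE3 from -0.39 to 0.22, MITF from -0.49 to 0.098, FNIP2 from -0.30 to 0.0083, MCOLN1 from -0.52 to 0.023. For GSK343 against DMSO they were TFE3 from -0.052 to 0.28, MITF from -0.48 to 0.11. For rapamycin against DMSO they were TFE3 from -0.083 to 0.081, MITF from -0.078 to 0.51, RRAGC from -0.11 to 0.055. For 2-PCPA against rapamycin they were TFE3 from -0.38 to 0.22, FLCN from -0.10 to 0.54, FNIP1 from -0.032 to 0.31, RRAGD from -0.14 to 0.34. For GSK343 against rapamycin they were TFE3 from -0.052 to 0.28, FNIP1 from -0.10 to 0.24. For 2-PCPA against GSK343 they were TFEB from -0.071 to 0.49, TFE3 from -0.50 to 0.11, MITF from -0.28 to 0.26, FNIP1 from -0.041 to 0.18.

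Other settings turned a sign in 38 cases, counted by gene, comparison and setting. Median centring gave for 2-PCPA against DMSO TFE3 0.12, MITF 0.0029, FNIP2 0.053, and for rapamycin against DMSO TFE3 0.049, RRAGC 0.020, and for 2-PCPA against rapamycin TFE3 0.070, and for GSK343 against rapamycin FNIP1 -0.026, and for 2-PCPA against GSK343 TFE3 0.053, MITF 0.24, RRAGD 0.0055. Quantile normalization gave for 2-PCPA against DMSO TFE3 0.23, and for rapamycin against DMSO TFE3 0.098, RRAGC 0.030, and for 2-PCPA against rapamycin TFE3 0.13, and for GSK343 against rapamycin TFE3 -0.014, FNIP1 -0.0071, and for 2-PCPA against GSK343 TFE3 0.14, MITF 0.21. TPM scaling gave for 2-PCPA against DMSO TFE3 0.28, MITF 0.099, FNIP2 0.16, MCOLN1 0.070, and for 2-PCPA against rapamycin TFE3 0.36, and for 2-PCPA against GSK343 TFE3 0.25, MITF 0.38, FLCN 0.087, FNIP2 0.012, RRAGC 0.073, RRAGD 0.12. Centring by G and C content gave for 2-PCPA against DMSO TFE3 0.14, FNIP2 0.048, and for GSK343 against DMSO TFE3 -0.17, and for rapamycin against DMSO RRAGC 0.064, and for 2-PCPA against rapamycin TFE3 0.22, and for GSK343 against rapamycin TFE3 -0.098, and for 2-PCPA against GSK343 TFE3 0.32, MITF 0.12, FLCN 0.010. For single libraries, genes past 1 or -1 came to 3 with BIX-01294 and 0 with BRD4770 and GSK-J4 for a pseudocount of 5, to 3 with BIX-01294 for centring by G and C content, and to 1 with BRD4770 (TFEB, past -1) and 0 with GSK-J4 for the median of the other libraries as reference.

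FPKM without counts leave the depth of each library unknown, and 2 libraries a group limit the precision of every comparison.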
